A study of Homo sapiens with 25 samples.

Results

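BT20 cells were compared 24 h after addition of the EGFR inhibitor erlotinib with BT20 cells at 0 min, across all genes of an Affymetrix expression array. The comparison uses 7 of the 25 arrays of the series. They are the 3 arrays whose titles place BT20 at 1 day and the 4 whose titles place BT20 at 0 minutes, and each result was repeated with 0 min replicates 1 to 3 as the controls. BT20 is an established human breast cancer line with a high level of EGFR. The treated cells received erlotinib at 10 µM, after 24 h of attachment in medium with serum, and the 0 min cells were plated in the same way. The other 18 arrays hold BT20 at 30 min and 6 h, and 0 min and 24 h arrays of the breast cancer line MDA-MB-453 and of a line labelled MCF, all with the same dose. The series has no BT20 group cultured without drug for 24 h, so the drug and the additional day in culture cannot be told apart. The labels do not state whether replicates came from separate cultures, so p-values measure a spread between arrays that may be technical. That spread was estimated within the 8 groups of all 25 arrays, so it includes other times and lines.

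EGFR is a receptor tyrosine kinase that, after binding ligands such as TGFA or EREG, signals through the RAS and ERK cascade and through PI3K, AKT and mTOR. Erlotinib occupies the ATP site of the kinase. In cells that depend on the receptor, ERK-driven transcription falls within hours, while transcripts that AKT restrains through FOXO factors can rise.

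Values are log2 GCRMA values, levels are given per array, and a change is the 24 h mean minus the 0 min mean in log2 units with the standard error of the limma fit after ±. Calls are genes with a two-sided p under 0.05 after Benjamini-Hochberg adjustment over 12643 genes. Where a group mean lay below 4 the size of a change is inexact. A gene is read from its brightest probe set. Of the 237 genes named from the comparison 111 had several, and for 38 of these another probe set showed less than 50% of the change given, in 5 with the opposite sign. Other probe sets are described below for only some of these 38 genes. The 24 h arrays correlated with each other at 0.997 to 0.998 over the genes, and 0 min replicates 1 to 3 at 0.995 to 0.998. Replicate 4 of the 0 min group stood apart. It correlated at 0.990 to 0.992 with the 6 h arrays and at 0.971 to 0.975 with the other 0 min arrays. The arrays carried epithelial transcripts, as the label implies. EPCAM averaged 12.17 ± 0.07 at 24 h and 12.27 ± 0.14 at 0 min, and the basal keratin KRT5 averaged 12.20 ± 0.07 at 24 h and 12.37 ± 0.31 at 0 min (SD, n = 3 and 4). The basal keratin KRT14 was near the floor at 3.33 ± 0.22 at 24 h and 3.89 ± 0.21 at 0 min. Of 15 leukocyte, 10 endothelial and 12 fibroblast or pericyte markers, 1, 4 and 2 exceeded 4 on any of the 7 arrays. PTPRC, VWF, KDR, COL3A1 and DCN stayed below 4, whereas CDH5 averaged 11.03 at 24 h and 11.13 at 0 min, and COL1A1 averaged 9.56 at 24 h and 9.11 at 0 min. The mean level of the leukocyte list lay between 2.37 and 2.40 at 24 h and between 2.13 and 2.24 at 0 min. CSF1R, PECAM1 and RGS5 from these 3 lists rose by 1.55, 1.01 and 1.19, to 24 h means of 4.47, 4.61 and 4.62. The part of other cell types in the results was not tested. PECAM1 stayed called without replicate 4 (1.44) but lost its call when any other of the 7 arrays was left out.

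At 24 h, 2387 genes (18.9%) were higher and 1762 (13.9%) were lower than at 0 min, together 32.8% of those tested. A change of at least 2-fold was reached by 1082 of the higher genes (8.56%) and by 688 of the lower genes (5.44%). With replicates 1 to 3 as controls, 2689 genes (21.3%) were higher and 1952 (15.4%) lower. In both sets of controls 2207 genes (17.5%) were called higher and 1595 (12.6%) lower, and no called gene changed sign. The median change over all genes tested was 0.03 with either set of controls. For 5760 genes (45.6%) the arrays of the groups did not overlap. In these bulk samples a smaller share of cells with a transcript and less of it per cell cannot be told apart. The plot of gene lists shows how the called members were spread over the gene lists, with the ERK output list lowest and the targets of the stress factors ATF4 and CHOP highest.

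**Figure D1:**
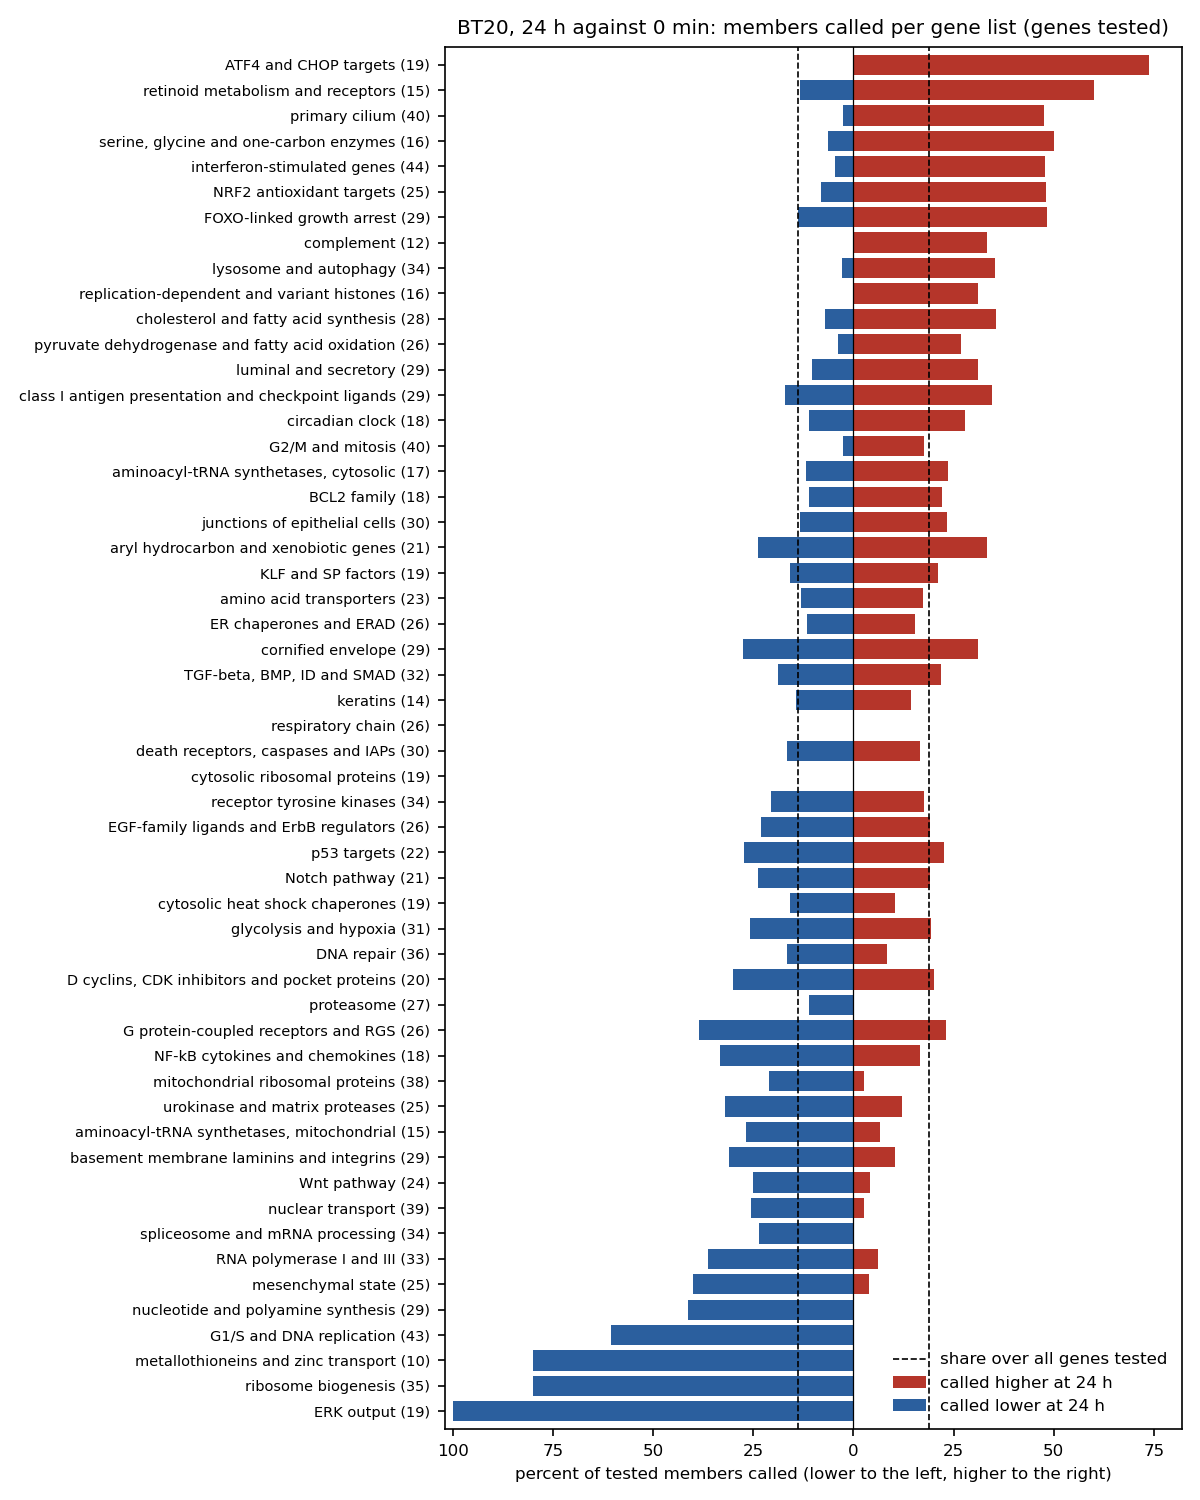
Percent of tested members called higher (right, red) and lower (left, blue) at 24 h against 0 min in BT20, by gene list, with the number of members tested in parentheses and dashed lines at the shares over all genes tested (18.9% higher, 13.9% lower). Metallothioneins and zinc transport stand beside ribosome biogenesis at the lower end, and the ATF4, retinoid, one-carbon and primary cilium lists stand at the upper end.

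The 12 largest falls were led by HSD3B1, an enzyme of steroid hormone synthesis. HSD3B1 had log2 values of 4.14, 3.76 and 4.19 at 24 h, against 11.11, 11.04, 10.95 and 11.29 at 0 min, and it fell by 7.07 ± 0.15 (adjusted p = 5.09e-18; -7.0 without replicate 4). The long noncoding RNA LINC01127 had values of 3.65, 3.45 and 3.46 at 24 h, against 10.57, 10.58, 9.96 and 8.91 at 0 min, a change of -6.49 (adjusted p = 6.98e-13; -6.85 without replicate 4). CEMIP, a protein that binds and degrades hyaluronan, had values of 2.64, 3.36 and 3.53 at 24 h, against 9.67, 9.66, 10.10 and 7.78 at 0 min. It fell by 6.12 ± 0.37 (adjusted p = 4.59e-11; -6.63 without replicate 4). Replicate 4, at 7.78, was the lowest of its controls. Every 24 h array of these genes lay under every control array, as the rule that chose the largest falls required. The remaining 9 were FOSL1, a FOS-family partner in AP-1 (-5.98 ± 0.33), the ERK phosphatase DUSP6 (-5.93 ± 0.19), the PAS-domain factor ARNT2 (-5.89 ± 0.22), the collagen COL15A1 (-5.39 ± 0.16), the focal adhesion protein TNS4 (-5.12 ± 0.22), the maltase MGAM (-5.1 ± 0.17), the receptor kinase AXL (-5.07 ± 0.16), the interleukin receptor subunit IL7R (-5.01 ± 0.16) and the ubiquitin ligase MARCHF4 (-4.97 ± 0.31). Without replicate 4 these 9 changes lay between -6.32 (FOSL1) and -4.92 (IL7R). IL7R is otherwise known from lymphocytes, and the pan-leukocyte marker PTPRC was at 2.03 at 24 h and 1.99 at 0 min.

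The largest rises were those of a long noncoding RNA and of an immune ligand. LINC01133 had values of 9.63, 9.88 and 9.77 at 24 h, against 2.24, 2.34, 2.42 and 2.85 at 0 min, and it rose by 7.3 ± 0.16 (adjusted p = 7.97e-18; 7.43 without replicate 4). VTCN1, which encodes an inhibitory ligand of the B7 family, had values of 8.36, 8.38 and 8.07 at 24 h, against 2.04, 2.48, 2.21 and 2.56 at 0 min, a rise of 5.94 ± 0.23 (adjusted p = 3.39e-14; 6.02 without replicate 4). SELENOP, the secreted selenium carrier, had values of 10.17, 10.31 and 10.22 at 24 h, against 5.19, 5.23, 5.02 and 4.04 at 0 min. It rose by 5.37 ± 0.24 (adjusted p = 6.98e-13; 5.09 without replicate 4), a 41.3-fold difference on this scale. That value is from the brightest of 3 probe sets, and the smallest change among them was 0.55. For VTCN1 and LINC01133 every 0 min array was below 4, so those rises started from background. The other 9 were the hydroxycarboxylic acid receptor HCAR3 (5.39 ± 0.14), the ubiquitin ligase PELI2 (5.2 ± 0.19), the mitochondrial folate enzyme ALDH1L2 (5.04 ± 0.17), YPEL2 of the yippee family (4.51 ± 0.3), the zinc finger gene ZSCAN31 (4.33 ± 0.24), POU2AF3, a coactivator of POU-domain factors (4.31 ± 0.2), BMF, a BH3-only protein that binds BCL2-like proteins (4.27 ± 0.22), the Rab effector SYTL5 (4.18 ± 0.15) and the mTORC1 inhibitor DDIT4 (4.17 ± 0.21). Without replicate 4 these rises lay between 4.12 (BMF) and 5.54 (HCAR3). Every 0 min array was also below 4 for at least HCAR3, PELI2, ALDH1L2, POU2AF3 and BMF. The sizes of those rises are therefore inexact.

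**Figure D2:**
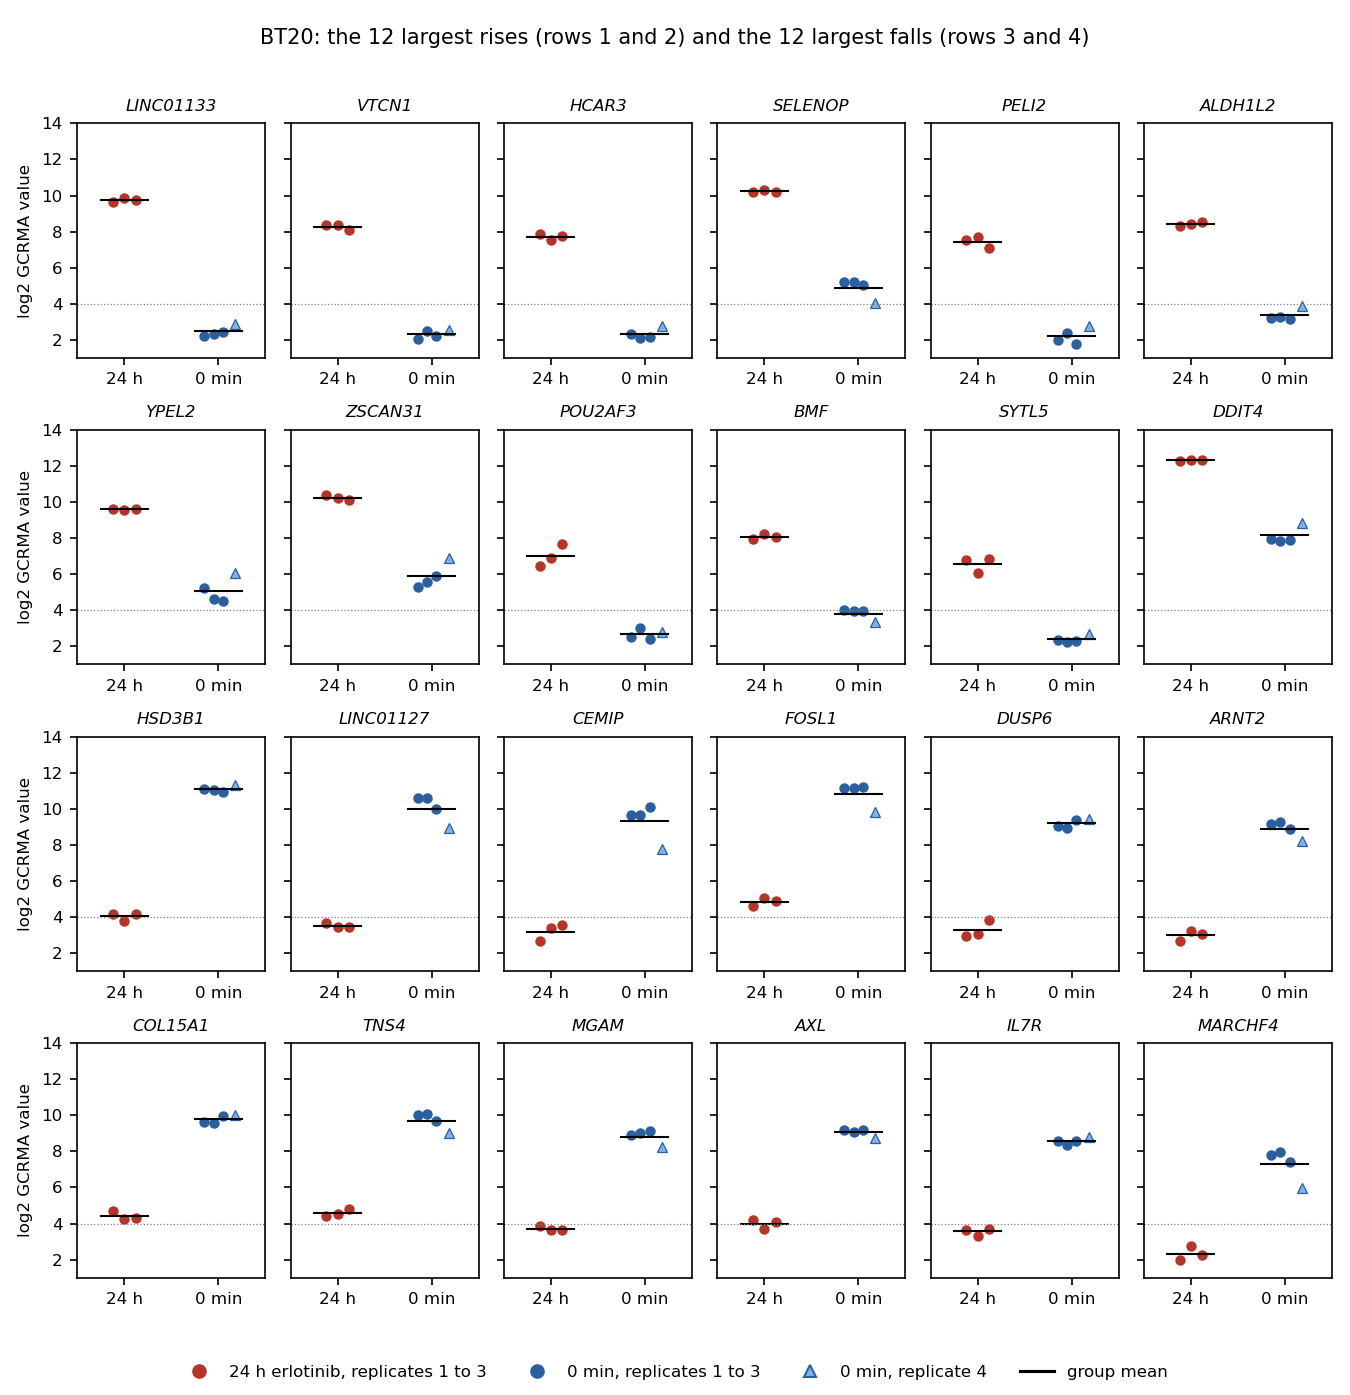
Log2 values of the 12 genes with the largest rise (upper panels) and the 12 with the largest fall (lower panels) in BT20 at 24 h (red, 3 arrays) and at 0 min (blue, replicates 1 to 3 as circles, replicate 4 as triangles), with black lines at the group means and a dotted line at the level of 4 used for testing. The groups do not overlap for any of these genes because the rule that chose them required it. Replicate 4 sits nearer to the 24 h arrays than the other controls for many of these genes, among them FOSL1, CEMIP, MARCHF4, LINC01127 and DDIT4. It sits farther from them for others, among them SELENOP and BMF.

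Genes with a large difference at 24 h were reached along different courses in the earlier arrays, which share the 0 min controls. FOSL1 averaged 10.83 at 0 min, 11.06 at 30 min, 4.41 at 6 h and 4.85 at 24 h, and TNS4 averaged 9.7 at 0 min, 10.19 at 30 min, 4.4 at 6 h and 4.57 at 24 h. Both were therefore already at their 24 h level at 6 h. By contrast AXL averaged 9.05 at 0 min, 9.14 at 30 min, 8.72 at 6 h and 3.98 at 24 h, and COL15A1 averaged 9.82 at 0 min, 9.77 at 30 min, 9.57 at 6 h and 4.42 at 24 h. Among the rises, DDIT4 averaged 8.15 at 0 min, 7.45 at 30 min, 11.92 at 6 h and 12.32 at 24 h. SELENOP averaged 4.87 at 0 min, 4.86 at 30 min, 5.54 at 6 h and 10.24 at 24 h, and VTCN1 averaged 2.32 at 0 min, 2.14 at 30 min, 2.85 at 6 h and 8.27 at 24 h. These 2 transcripts, like the keratin KRT15, were still close to their 0 min level at 6 h.

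**Figure D3:**
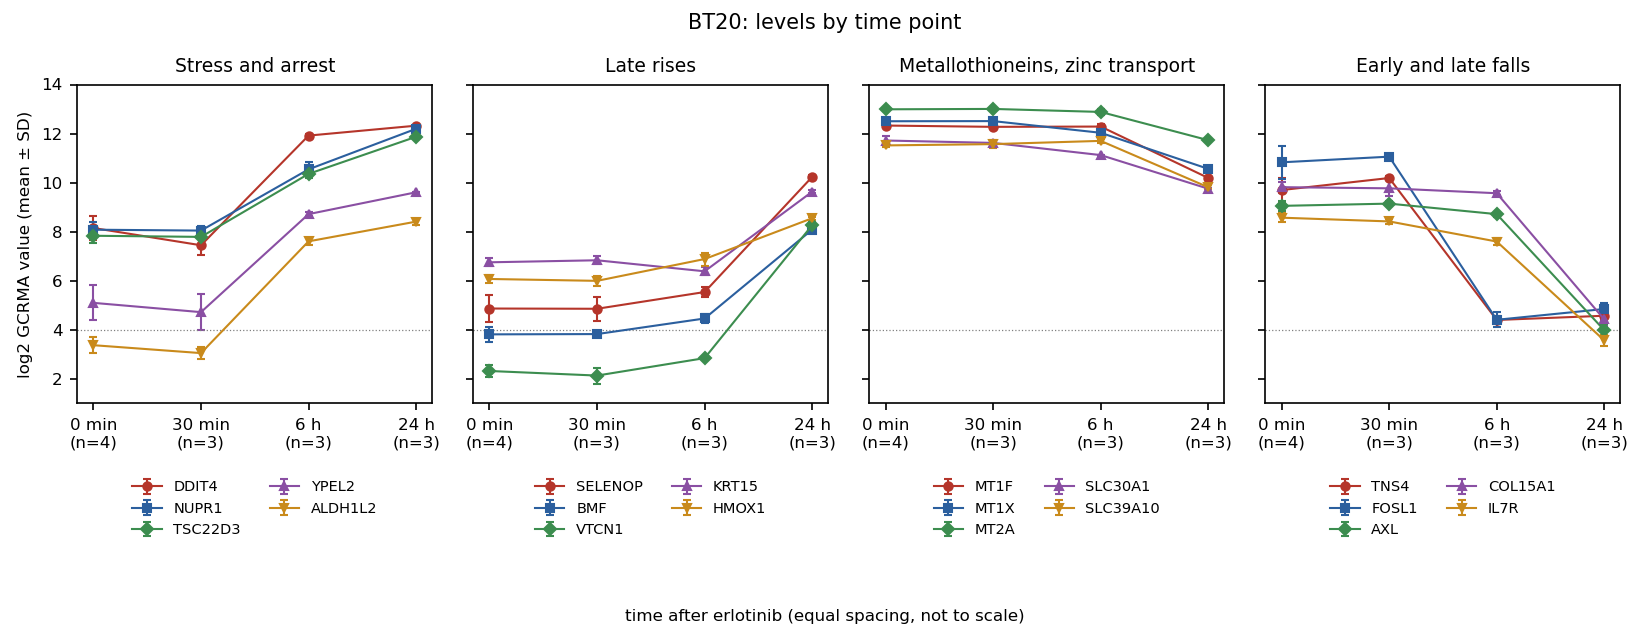
Mean log2 values ± SD of 20 genes in BT20 at 0 min (4 arrays), 30 min, 6 h and 24 h (3 arrays each) after erlotinib, in 4 panels, with the time points equally spaced and a dotted line at 4. DDIT4 and FOSL1 had moved by 6 h, whereas SELENOP, VTCN1, AXL, COL15A1 and the metallothioneins MT1F and MT2A stayed near their 0 min mean until after 6 h. The 0 min mean includes replicate 4, which for SELENOP was 4.04.

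Metallothioneins are small cysteine-rich proteins that bind zinc and copper, and the zinc-sensing factor MTF1 activates them through metal response elements. Of 10 genes of metallothioneins and zinc transport tested, 8 (80%) fell and 0 rose at 24 h, against 13.9% and 18.9% over all genes. Without replicate 4, 9 fell and 1 rose, and the median change with the 4 controls was -1.64. MT1F had values of 10.17, 10.20 and 10.20 at 24 h, against 12.32, 12.40, 12.35 and 12.24 at 0 min, and it fell by 2.14 ± 0.17 (adjusted p = 4.16e-09). MT2A, the most widely expressed member, had 11.68, 11.73 and 11.78 at 24 h, against 12.97, 12.96, 12.998 and 13.03 at 0 min, and it fell by 1.26 ± 0.38 (adjusted p = 0.0138). Its SDs were 0.05 at 24 h and 0.03 at 0 min, while the standard error draws on the spread of all 25 arrays, other lines included. The zinc exporter SLC30A1 had 9.74, 9.79 and 9.73 at 24 h, against 11.74, 11.78, 11.88 and 11.48 at 0 min, and it fell by 1.96 ± 0.1 (adjusted p = 8.65e-12). No 24 h array of these 3 genes overlapped a control, which held for 45.6% of all genes tested. The changes of MT1X (-1.94), MT1G (-1.74), MT1H (-1.58), MT1E (-1.4) and the zinc importer SLC39A10 (-1.7) were of like size. Without replicate 4 the 8 changes lay between -2.17 and -1.25. Probe sets of the MT1 genes may cross-hybridise because the transcripts are near-identical, so the falls of single MT1 members are uncertain. The exporter SLC30A1 and the importer SLC39A10 fell too, and the part of cross-hybridisation in the MT1 falls was not tested. Another of the 3 probe sets of SLC30A1 changed by -0.31.

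The 250 bases before the RefSeq start (GRCh38.p14) of 4 genes that fell are shown for the letters of the metal response element core, TGCACNC or TGCGCNC on either strand, in capitals. MT2A lies at chr16:56608334-56608583, plus strand, MT1X at chr16:56682220-56682469, plus strand, MT1H at chr16:56669564-56669813, plus strand and SLC30A1 at chr1:211579162-211579411, minus strand.
MT2A: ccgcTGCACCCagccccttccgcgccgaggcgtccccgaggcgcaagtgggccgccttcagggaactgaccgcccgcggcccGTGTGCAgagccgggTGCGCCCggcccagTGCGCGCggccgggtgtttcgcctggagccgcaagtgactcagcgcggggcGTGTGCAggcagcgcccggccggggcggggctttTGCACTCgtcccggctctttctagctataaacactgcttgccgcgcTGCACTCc
MT1X: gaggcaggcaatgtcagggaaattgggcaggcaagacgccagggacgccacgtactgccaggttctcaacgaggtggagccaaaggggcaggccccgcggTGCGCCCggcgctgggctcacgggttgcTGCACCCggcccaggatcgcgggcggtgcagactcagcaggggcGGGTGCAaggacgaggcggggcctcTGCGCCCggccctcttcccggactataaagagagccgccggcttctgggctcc
MT1H: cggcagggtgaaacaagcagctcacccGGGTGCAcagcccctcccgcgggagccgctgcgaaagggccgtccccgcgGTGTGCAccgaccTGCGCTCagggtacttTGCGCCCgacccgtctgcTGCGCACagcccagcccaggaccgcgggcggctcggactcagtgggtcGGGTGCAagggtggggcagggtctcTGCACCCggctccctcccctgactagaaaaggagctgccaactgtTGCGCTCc
SLC30A1: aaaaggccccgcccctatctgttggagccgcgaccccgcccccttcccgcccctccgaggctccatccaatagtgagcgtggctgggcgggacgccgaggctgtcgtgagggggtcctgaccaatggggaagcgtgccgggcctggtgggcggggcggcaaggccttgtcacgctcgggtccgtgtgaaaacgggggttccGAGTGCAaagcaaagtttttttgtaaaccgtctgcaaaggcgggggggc
The core matched 7 times in MT2A, 4 in MT1X, 8 in MT1H and 1 in SLC30A1. Of the 10 members 7 were in the promoter table, and 5 of these held the core (SLC39A10 and MTF1 did not), while 28.5% of 27305 genes with a listed promoter held it. A match of 7 letters is a description and not a site of binding.

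Most targets of the amino acid response rose. ATF4 is translated when the kinases of the integrated stress response act, and with CHOP it raises genes of amino acid supply and redox balance. Of 19 ATF4 and CHOP targets 14 (73.7%) rose and 0 fell (15 and 0 without replicate 4). Over all genes 18.9% rose and 13.9% fell. The median change was 1.42 against 0.03 over all genes. NUPR1, a stress-induced chromatin protein, had values of 12.28, 12.15 and 12.16 at 24 h, against 8.03, 8.52, 7.8 and 7.98 at 0 min, and it rose by 4.11 ± 0.17 (adjusted p = 8.51e-14; 4.08 without replicate 4). CHAC1, which degrades glutathione, had values of 8.17, 8.18 and 8.02 at 24 h, against 4.26, 3.71, 4.29 and 4.21 at 0 min, a rise of 4.01 ± 0.31 (adjusted p = 2.3e-09). The asparagine synthetase ASNS had values of 11.73, 11.75 and 11.80 at 24 h, against 9.4, 9.34, 9.11 and 9.02 at 0 min, a rise of 2.54 ± 0.19 (adjusted p = 1.1e-09). Each of these 3 was already higher at 6 h, where the means were 10.54 ± 0.29 (SD) for NUPR1, 7.67 ± 0.11 for CHAC1 and 10.94 ± 0.18 for ASNS. The lipoprotein receptor VLDLR (2.83 ± 0.19) and the stress sensor SESN2 (2.58 ± 0.28) rose as well.

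In the list of serine, glycine and folate metabolism, which also holds the asparagine synthetase ASNS, 8 of 16 genes (50%) rose and 1 (6.25%) fell. The counts were 9 and 2 without replicate 4, and the median change was 0.39. ALDH1L2, the mitochondrial enzyme that oxidises formyl-tetrahydrofolate to carbon dioxide, had the largest change of the list, with values of 8.29, 8.41 and 8.54 at 24 h, against 3.19, 3.28, 3.15 and 3.87 at 0 min. Its rise of 5.04 ± 0.17 (adjusted p = 9.37e-15) compares with 2.54 ± 0.19 for ASNS, the next largest in that list, and with 0.94 ± 0.19 for the serine pathway enzyme PSAT1. Of 17 cytosolic aminoacyl-tRNA synthetases 4 rose and 2 fell (3 and 4 without replicate 4), among them AARS1 (0.98), CARS1 (1.1) and FARSB (-0.72). The 15 mitochondrial synthetases gave 1 rise (6.67%), PARS2 (1.24), and 4 falls (26.7%), which included MARS2 (-1.85) and WARS2 (-0.64). The 4 falls became 2 when 24 h replicate 1 or 2 or 0 min replicate 1 or 3 was left out. Amino acid transporters showed 4 rises and 3 falls among 23 (2 rises without 24 h replicate 3), with the lysosomal exporter SLC36A1 changed by -1.22 and the glycine transporter SLC6A9 higher by 1.05 from below 4. The transporters (17.4% higher, 13% lower) and the cytosolic synthetases (23.5% and 11.8%) were called in shares close to those over all genes (18.9% and 13.9%).

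A set of antioxidant and xenobiotic genes rose. NRF2 is a transcription factor freed from KEAP1 by oxidants and electrophiles. Of 25 NRF2 targets 12 (48%) rose and 2 (8%) fell, against 18.9% and 13.9% over all genes. The counts were the same without replicate 4, and the median change was 0.45. HMOX1, which degrades heme, had values of 8.56, 8.48 and 8.61 at 24 h, against 6.23, 5.88, 6.08 and 6.09 at 0 min, and it rose by 2.48 ± 0.21 (adjusted p = 9.54e-09). The export pump ABCC3 had 11.43, 11.49 and 11.45 at 24 h, against 8.87, 8.84, 8.49 and 8.64 at 0 min, a rise of 2.75 ± 0.28 (adjusted p = 1.1e-07). The aldo-keto reductases AKR1C3 (2.48 ± 0.21), AKR1C2 (1.93 ± 0.26) and AKR1C1 (1.81 ± 0.23) and the iron-binding protein PIR (1.57 ± 0.14) rose with them. The AKR1C transcripts are close paralogs and may share probe signal. Not every list member followed, since 11 of the 25 were not called.

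Of 21 aryl hydrocarbon receptor and xenobiotic genes 7 (33.3%) rose and 5 (23.8%) fell (8 and 6 without replicate 4). Over all genes 18.9% rose and 13.9% fell. CYP1A1, the classical target of the aryl hydrocarbon receptor, had 7.59, 7.64 and 7.62 at 24 h, against 5.43, 5.12, 5.2 and 3.64 at 0 min, a rise of 2.77 ± 0.31 (adjusted p = 4.62e-07). Replicate 4 at 3.64 was the lowest control, and the rise was 2.37 without it. CYP4F3, a leukotriene and fatty acid hydroxylase, rose by 3.68 ± 0.15 from below 4, and CYP1B1 rose by 0.52 ± 0.13. The receptor AHR itself fell by 0.6 ± 0.15, and the partner ARNT2 had 2.65, 3.24 and 3.05 at 24 h, against 9.13, 9.29, 8.88 and 8.19 at 0 min.

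Of 7 EGF-family ligands tested 3 fell and 0 rose, and the receptors ERBB2 and ERBB3 rose. HBEGF had values of 3.66, 3.38 and 3.93 at 24 h, against 7.44, 7.45, 7.51 and 6.98 at 0 min, and it fell by 3.69 ± 0.21 (adjusted p = 3.14e-11). EREG had 8.84, 8.85 and 8.89 at 24 h, against 11.05, 11.09, 11.15 and 11.95 at 0 min, and it fell by 2.45 ± 0.33 (adjusted p = 5.01e-06). TGFA fell by 1.07 ± 0.23 (adjusted p = 0.00082). ERBB2, the ligandless partner of the family, had 9.42, 9.51 and 9.43 at 24 h, against 8.36, 8.67, 7.93 and 7.64 at 0 min, and it rose by 1.31 ± 0.28 (adjusted p = 0.000859; 1.14 without replicate 4). ERBB3 had 11.27, 11.38 and 11.44 at 24 h, against 10.62, 10.70, 10.48 and 10.64 at 0 min, and it rose by 0.75 ± 0.09 (adjusted p = 1.56e-06). ERBB4 stayed below 4 on the 7 arrays and was not called. EGFR itself had 11.83, 11.88 and 11.81 at 24 h, against 12.49, 12.46, 12.40 and 12.16 at 0 min, a difference of -0.54 ± 0.23 that did not pass (adjusted p = 0.0841). It passed in 7 of 18 alternative settings, among them a fit to the arrays of BT20 alone (adjusted p = 0.000788), and its adjusted p lay between 5.38e-06 with array weights and 0.179 without 24 h replicate 3. All 8 probe sets of EGFR were lower at 24 h, with changes between -0.99 and -0.22. The SDs of EGFR in BT20 were 0.03 at 24 h and 0.15 at 0 min. Its standard error draws on the spread of all 25 arrays, other lines included. Among the 26 ligands and regulators 5 rose and 6 fell (6 and 8 without replicate 4). Their shares, 19.2% higher and 23.1% lower, compare with 18.9% and 13.9% over all genes. The adaptor GRB10, which binds activated receptor kinases, had 7.88, 7.71 and 7.92 at 24 h, against 4.59, 5.43, 4.92 and 3.74 at 0 min, a rise of 3.17 ± 0.24 (adjusted p = 2.1e-09), and the ubiquitin ligase CBLB rose by 1.15 ± 0.14. The smallest change among the 3 probe sets of GRB10 was 0.74.

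Of 34 receptor tyrosine kinases and related receptors 6 rose and 7 fell (4 and 9 without replicate 4, and 3 rises without 24 h replicate 2). These shares, 17.6% higher and 20.6% lower, were not far from those over all genes (18.9% and 13.9%), so single members are described. AXL, a receptor for GAS6, had values of 4.18, 3.7 and 4.07 at 24 h, against 9.21, 9.1, 9.17 and 8.73 at 0 min, and it fell by 5.07 ± 0.16 (adjusted p = 3.91e-15). The ephrin receptors EPHA4 (-4.58 ± 0.2) and EPHA2 (-2.33 ± 0.32) and the orphan receptor ROR1 (-1.68 ± 0.18) fell. Another of the 3 probe sets of ROR1 changed by -0.44. RET, the receptor of the GDNF family, had 6.33, 6.59 and 6.43 at 24 h, against 4.75, 4.61, 4.21 and 2.69 at 0 min, a rise of 2.39 ± 0.3 (adjusted p = 2.17e-06). Its 24 h arrays were close to each other, whereas replicate 4 at 2.69 lay below the other controls, and the rise was 1.93 without it. The smallest change among the 3 probe sets of RET was 0.34.

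Cell attachment and matrix genes with large falls included a tensin, integrins and matrix proteins. Of 29 laminins, integrins and linked proteins 9 (31%) fell and 3 (10.3%) rose, against 13.9% and 18.9% over all genes. The counts were 11 and 3 without replicate 4. TNS4 had values of 4.42, 4.52 and 4.78 at 24 h, against 10.01, 10.07, 9.7 and 9.0 at 0 min, and it fell by 5.12 ± 0.22 (adjusted p = 1.89e-13). Its relative TNS1, which links integrins to actin, had 6.33, 5.93 and 5.99 at 24 h, against 3.74, 3.48, 3.41 and 3.41 at 0 min, and it rose by 2.57 ± 0.13 (adjusted p = 4.26e-12) from below 4. The collagen receptor subunit ITGA2 had 7.3, 7.25 and 7.53 at 24 h, against 11.12, 11.11, 11.41 and 10.69 at 0 min, and it fell by 3.72 ± 0.19 (adjusted p = 3.51e-12). ITGA3 fell by 1.34 (-1.77 without replicate 4), and replicate 4 overlapped the 24 h arrays at 8.11. ITGB4, a hemidesmosome integrin, differed by -1.39 ± 0.5 (adjusted p = 0.0353) and by -1.91 without replicate 4. That call was lost when any other of the 7 arrays was left out.

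Of 25 genes of urokinase and matrix proteolysis 8 (32%) fell and 3 (12%) rose, against 13.9% and 18.9% over all genes. The counts were 10 and 2 without replicate 4. ADAMTS6 fell by 4.19 to below 4, and the collagenase MMP1 fell by 1.59 to below 4. PLAUR, the urokinase receptor, had 9.45, 9.39 and 9.52 at 24 h, against 10.89, 10.87, 10.88 and 10.29 at 0 min, and it fell by 1.27 ± 0.18 (adjusted p = 1.3e-05). Of 25 genes of the mesenchymal state 10 (40%) fell and 1 (4%) rose (11 and 2 without replicate 4). The transcription factor SNAI2 had 7.79, 8.03 and 8.28 at 24 h, against 10.00, 9.72, 10.40 and 9.46 at 0 min, and it fell by 1.87 ± 0.21 (adjusted p = 6.09e-07). The matrix proteins TNC (-2.78 ± 0.17) and THBS1 (-2.49 ± 0.42) fell, as did ZEB1 (-0.71 ± 0.19), while THBS2 rose by 1.42. The 2 thrombospondin genes thus moved in opposite directions.

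Epithelial genes held calls in both directions. In junction genes and keratins the shares called, 23.3% and 14.3% higher and 13.3% and 14.3% lower, were close to those over all genes (18.9% and 13.9%), so only single members are described. Of 30 junction genes 7 rose and 4 fell (8 and 5 without replicate 4). TJP3, a scaffold of tight junctions, had 10.21, 10.18 and 10.28 at 24 h, against 6.35, 6.42, 6.08 and 7.77 at 0 min, and it rose by 3.57 ± 0.55 (adjusted p = 3.36e-05; 3.94 without replicate 4). CLDN8 rose by 3.39 ± 0.44 (4.08 without replicate 4), and replicate 4 stood above the other controls at 6.45. CLDN4 rose by 1.13. CLDN1 had 8.37, 8.9 and 8.8 at 24 h, against 10.76, 10.84, 10.69 and 10.35 at 0 min, and it fell by 1.97 ± 0.17 (adjusted p = 8.22e-09). Of 14 keratins 2 rose and 2 fell (1 and 2 without replicate 4). KRT15, a keratin of basal layers of stratified epithelia, had 9.69, 9.59 and 9.61 at 24 h, against 6.9, 6.87, 6.67 and 6.56 at 0 min, and it rose by 2.88 ± 0.13 (adjusted p = 7.78e-13). KRT5 differed by -0.17 ± 0.17 (adjusted p = 0.489), and KRT23 (-0.69) and KRT14 (-0.56) fell near the floor.

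Of 29 genes of the cornified envelope 9 (31%) rose and 8 (27.6%) fell, against 18.9% and 13.9% over all genes. The counts were 7 and 8 without replicate 4. PADI1, a peptidylarginine deiminase of the epidermis, had 4.36, 4.37 and 4.4 at 24 h, against 8.6, 8.4, 8.78 and 6.13 at 0 min, a change of -3.6 (adjusted p = 4.21e-07; -4.22 without replicate 4). S100A7 fell by 1.76. The lipid transporter ABCA12 (1.83 ± 0.19), the envelope protein IVL (1.4 ± 0.23), the protease KLK7 (1.89 ± 0.27) and the transglutaminase TGM5 (1.87 ± 0.13, from below 4) rose. Of 29 luminal and secretory genes 9 (31%) rose and 3 (10.3%) fell, also without replicate 4. MUC1 had 12.56, 12.59 and 12.58 at 24 h, against 10.81, 10.81, 10.74 and 11.08 at 0 min, and it rose by 1.72 ± 0.18 (adjusted p = 1.4e-07). The epithelial factor ELF3 (1.94 ± 0.25) and the mucin MUC16 (2.19 ± 0.2, from below 4) rose.

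Retinoid genes were among the lists with the largest share of rises. Retinol is taken up through STRA6, converted by dehydrogenases and read by RAR and RXR receptors. Of 15 members 9 (60%) rose and 2 (13.3%) fell, against 18.9% and 13.9% over all genes. The counts were 8 and 2 without replicate 4, and the median change was 0.59. RARRES1, a retinoid-induced membrane protein, had 11.35, 11.53 and 11.40 at 24 h, against 9.82, 9.78, 10.07 and 9.16 at 0 min, and it rose by 1.72 ± 0.16 (adjusted p = 3.65e-08). The retinal reductase DHRS3 had 12.46, 12.46 and 12.43 at 24 h, against 10.90, 10.93, 10.35 and 11.32 at 0 min, and it rose by 1.57 ± 0.23 (adjusted p = 1.27e-05). STRA6 rose by 1.84 ± 0.34 and RXRA rose by 0.89 ± 0.1. No 24 h array of these 4 genes overlapped the controls, which held for 45.6% of all genes tested.

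Genes of the primary cilium, a sensory organelle that cells build outside division, rose in 19 of 40 cases and fell in 1 (21 and 1 without replicate 4). The shares were 47.5% higher and 2.5% lower, against 18.9% and 13.9% over all genes, and the median change was 0.44. Several belong to intraflagellar transport. IFT172 had 6.63, 6.32 and 6.67 at 24 h, against 5.25, 5.05, 4.94 and 5.06 at 0 min, and it rose by 1.47 ± 0.17 (adjusted p = 8.63e-07). IFT140 had 6.24, 6.29 and 5.9 at 24 h, against 4.53, 4.68, 4.63 and 4.37 at 0 min, and it rose by 1.59 ± 0.19 (adjusted p = 1.18e-06). IFT80 (1.04 ± 0.12) and IFT74 (0.89 ± 0.17) rose likewise, and so did BBS9 (1.4 ± 0.25), BBS1 (1.38 ± 0.39) and BBS2 (1.15 ± 0.26) of the BBSome, a coat for membrane proteins of the cilium. Another of the 3 probe sets of BBS9 changed by only 0.07. IFT81 rose by 1.03 (1.41 without replicate 4), and replicate 4 lay among the 24 h arrays at 5.83.

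Of 16 histone genes 5 (31.2%) rose and 0 fell, also without replicate 4, against 18.9% and 13.9% over all genes. H2AC6 had 11.28, 11.43 and 11.47 at 24 h, against 9.43, 9.48, 9.46 and 9.14 at 0 min, and it rose by 2.02 ± 0.1 (adjusted p = 5.15e-12). H2BC21 had 12.04, 12.02 and 12.03 at 24 h, against 10.64, 10.67, 10.30 and 10.52 at 0 min, and it rose by 1.5 ± 0.13 (adjusted p = 7.44e-09). H2BC5 (1.21 ± 0.13) and H2BC4 (1.2 ± 0.18) rose too. Their sequences are near-identical to those of other histone genes, so the assignment to single genes is uncertain. Of 43 genes of G1/S and DNA replication 26 (60.5%) fell and 0 rose with either set of controls. In that list CLSPN fell by 1.83 (-1.15 without replicate 4). Replicate 4 stood at 10.47, against 7.76, 7.97 and 7.56 in the other controls. CDC6 fell by 1.26 ± 0.16 and ORC1 fell by 1.45 ± 0.26. Of 40 genes of G2/M and mitosis 7 rose and 1 fell (8 and 0 without replicate 4, and 4 rises without 24 h replicate 2). The share that rose, 17.5%, was close to the 18.9% over all genes, and 2.5% fell against 13.9%. Single members that rose were CDC25C (1.4) and CENPA (0.78).

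In the cell-cycle entry list of 20 genes 4 rose and 6 fell (5 and 6 without replicate 4). The shares were 20% higher and 30% lower, against 18.9% and 13.9% over all genes. CCND1, the cyclin through which growth factors act on CDK4 and CDK6, had 10.41, 10.40 and 10.50 at 24 h, against 11.65, 11.58, 11.51 and 11.58 at 0 min, and it fell by 1.14 ± 0.12 (adjusted p = 3.48e-07). CDK6 fell by 1.11 ± 0.13, and CCNG2, an atypical cyclin linked to arrest, rose by 2.33 ± 0.22. CDKN1A had 8.2, 7.89 and 8.04 at 24 h, against 9.27, 9.29, 8.93 and 7.65 at 0 min. Its change of -0.74 (adjusted p = 0.0353) was -1.12 without replicate 4, and the call was lost when any other of the 7 arrays was left out. MYC had 6.15, 6.91 and 6.36 at 24 h, against 7.77, 8.67, 7.94 and 11.19 at 0 min, a change of -2.42 (adjusted p = 0.00357; -1.65 without replicate 4). Replicate 4 was its highest control.

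Developmental signalling pathways included single members with large changes. The TGF-beta and Notch lists were called in shares (21.9% and 19% higher, 18.8% and 23.8% lower) not far from those over all genes. In the TGF-beta, BMP and SMAD list 7 of 32 rose and 6 fell (10 and 6 without replicate 4). ID1, an inhibitor of basic helix-loop-helix factors and a BMP target, had 9.85, 9.94 and 9.75 at 24 h, against 5.59, 5.35, 5.23 and 6.79 at 0 min, and it rose by 4.1 ± 0.5 (adjusted p = 1.65e-06). ID2 (1.94 ± 0.29, from below 4) and ID3 (1.05 ± 0.31, call lost without 24 h replicate 3) rose. The BMP antagonist NOG had 9.65, 9.7 and 9.2 at 24 h, against 11.84, 11.57, 11.73 and 11.17 at 0 min, and it fell by 2.06 ± 0.27 (adjusted p = 3.45e-06), and SMAD7 fell by 1.09 ± 0.27. Of 24 Wnt genes 1 (4.17%) rose and 6 (25%) fell, against 18.9% and 13.9% over all genes. The counts were 1 and 7 without replicate 4. The Wnt antagonist DKK1 had 6.95, 6.79 and 6.53 at 24 h, against 11.54, 11.42, 11.66 and 11.20 at 0 min, and it fell by 4.7 ± 0.2 (adjusted p = 1.66e-13). ZNRF3, a ubiquitin ligase that removes Wnt receptors, fell by 1.91 ± 0.13, and the receptor FZD4 fell by 1.24 ± 0.14.

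Of 21 Notch genes 4 rose and 5 fell with either set of controls. These counts were not stable, since leaving out 1 array brought the falls to between 1 (24 h replicate 2) and 3, and the rises to 2 (24 h replicate 1 or 3). NOTCH3 rose by 0.78 ± 0.2, and the glycosyltransferase MFNG fell by 1.29 to below 4. Among 19 KLF and SP factors 4 rose and 3 fell (3 and 4 without replicate 4). Their shares, 21.1% and 15.8%, were close to those over all genes (18.9% higher and 13.9% lower). KLF4 had 6.79, 6.71 and 6.85 at 24 h, against 9.12, 9.35, 9.23 and 8.56 at 0 min, and it fell by 2.29 ± 0.15 (adjusted p = 1.78e-10), whereas KLF8 had 9.29, 9.77 and 9.32 at 24 h, against 6.57, 6.23, 6.44 and 7.59 at 0 min, and it rose by 2.75 ± 0.24 (adjusted p = 1.51e-08). KLF6 fell by 1.23 ± 0.17, and KLF9 rose by 1.78 ± 0.32. Of 18 clock genes 5 (27.8%) rose and 2 (11.1%) fell (6 and 1 without replicate 4). NPAS2, a paralog of CLOCK, had 6.77, 6.99 and 7.24 at 24 h, against 10.66, 10.77, 10.30 and 10.68 at 0 min, and it fell by 3.6 ± 0.18 (adjusted p = 4.37e-12). BHLHE41 rose by 1.11 ± 0.21. The clock output factor DBP had 6.66, 6.96 and 6.94 at 24 h, against 4.72, 4.71, 4.68 and 5.23 at 0 min, but its 2 probe sets changed in opposite directions.

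Of 26 G protein-coupled receptors and RGS genes 6 (23.1%) rose and 10 (38.5%) fell (7 and 10 without replicate 4). Over all genes 18.9% rose and 13.9% fell. The adenosine receptor ADORA2B had 9.17, 9.09 and 9.16 at 24 h, against 11.34, 11.32, 11.36 and 11.32 at 0 min, and it fell by 2.2 ± 0.13 (adjusted p = 6.84e-11), with near-equal values in the 4 controls. The adhesion receptor ADGRF4 fell by 1.91 ± 0.18. The chemokine receptor CXCR4 had 7.89, 7.59 and 7.19 at 24 h, against 5.33, 4.96, 4.98 and 5.66 at 0 min, a rise of 2.32 ± 0.18 for the probe set used and the same sign in 2 of its 3 probe sets. HCAR3, the receptor among the largest rises, had 7.89, 7.51 and 7.78 at 24 h, against 2.31, 2.12, 2.15 and 2.78 at 0 min.

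Immune genes included rises of some interferon-linked genes and falls of 2 checkpoint ligands. Among 44 genes that interferons induce, 21 (47.7%) rose and 2 (4.55%) fell, against 18.9% and 13.9% over all genes. The counts were 22 and 2 without replicate 4, and the median change was 0.76. The 2 that fell were IFIT1 and IFIT5. Members not called included ISG15, IFI6, IFI27, IFI44, IFI44L, RSAD2, BST2, IFITM3 and HERC5. XAF1, a proapoptotic interferon target, had 7.67, 7.71 and 7.76 at 24 h, against 4.22, 4.15, 3.93 and 4.28 at 0 min, and it rose by 3.57 ± 0.47 (adjusted p = 4.55e-06). SAMD9L, an antiviral factor, rose by 2.41 ± 0.23. The ADP-ribosyltransferase genes PARP9 (2.16 ± 0.16) and PARP14 (2.09 ± 0.2) and the RNA sensor IFIH1 (0.94 ± 0.13) rose. The other probe set of IFIH1 changed by 0.24. PARP14 had values of 10.07, 10.18 and 10.14 at 24 h, against 7.66, 7.64, 8.0 and 8.88 at 0 min.

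The 250 bases before the RefSeq start (GRCh38.p14) of 2 of these genes are shown for the letters of the interferon-stimulated response element, GAAA, any 2 bases, then GAAA, on either strand, in capitals. IFIH1 lies at chr2:162318685-162318934, minus strand, and PARP14 at chr3:122680589-122680838, plus strand.
IFIH1: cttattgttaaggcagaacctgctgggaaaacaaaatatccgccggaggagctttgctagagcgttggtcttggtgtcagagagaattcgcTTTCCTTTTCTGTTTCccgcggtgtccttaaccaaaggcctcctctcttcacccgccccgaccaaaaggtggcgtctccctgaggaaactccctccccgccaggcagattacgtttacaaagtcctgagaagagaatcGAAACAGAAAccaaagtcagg
PARP14: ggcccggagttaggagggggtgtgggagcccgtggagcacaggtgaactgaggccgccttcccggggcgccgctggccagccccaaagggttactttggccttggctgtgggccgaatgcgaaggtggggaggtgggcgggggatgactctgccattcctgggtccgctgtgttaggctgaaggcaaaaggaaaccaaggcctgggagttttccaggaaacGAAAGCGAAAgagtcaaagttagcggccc
These letters matched 3 times in IFIH1, in 2 separate stretches, and 1 time in PARP14. Of the 44 list members 37 were in the promoter table and 23 held the letters, while 3.71% of 27305 genes with a listed promoter held them. Among the members the letters were found in 10 of 22 that were called, higher or lower, and in 13 of 15 that were not. The 10 include IFIT1 and IFIT5, which fell.

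In antigen presentation and checkpoint ligands 10 of 29 genes (34.5%) rose and 5 (17.2%) fell, against 18.9% and 13.9% over all genes. The counts were 9 and 7 without replicate 4. The immunoproteasome subunits PSMB9 (1.86 ± 0.24), PSMB10 (1.5 ± 0.27) and PSMB8 (0.95 ± 0.23) rose, and so did HLA-E (0.87 ± 0.16). TAP2, a subunit of the peptide transporter, fell by 1.18 ± 0.14, with the same sign in 3 of its 4 probe sets. CD274, the ligand PD-L1, had 7.38, 7.44 and 7.75 at 24 h, against 9.57, 9.6, 9.65 and 9.73 at 0 min, and it fell by 2.12 ± 0.12 (adjusted p = 2.26e-11). PDCD1LG2, the related ligand PD-L2, had 2.45, 2.46 and 2.3 at 24 h, against 4.91, 4.81, 4.82 and 4.62 at 0 min, and it fell by 2.38 ± 0.2 (adjusted p = 1.08e-08). VTCN1, of the same family, was among the largest rises. Of 12 complement genes 4 (33.3%) rose and 0 fell with either set of controls, among them C5 (1.91 ± 0.17), C1S (1.6 ± 0.24) and SERPING1 (1.09 ± 0.25). Of 18 NF-kB-linked cytokines and regulators 3 (16.7%) rose and 6 (33.3%) fell (3 and 7 without replicate 4). LIF had 5.37, 5.91 and 5.69 at 24 h, against 8.93, 8.58, 8.79 and 9.93 at 0 min, and it fell by 3.4 ± 0.24 (adjusted p = 4.98e-10), and IL18 fell by 2.19 ± 0.24. The inhibitor NFKBIA rose by 1.7 ± 0.25, NFKBIZ rose by 1.19 ± 0.26 and TNFAIP2 rose by 0.96 ± 0.13.

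Cell death regulators were called in shares close to those over all genes, with 22.2% of the BCL2 family and 16.7% of death receptors and caspases higher, and 11.1% and 16.7% lower. Of 18 BCL2-family genes 4 rose and 2 fell (5 and 3 without replicate 4). BMF had 7.96, 8.24 and 8.06 at 24 h, against 4.0, 3.95, 3.95 and 3.37 at 0 min, and it rose by 4.27 ± 0.22 (adjusted p = 4.61e-12). HRK, also BH3-only, had 7.85, 7.91 and 7.9 at 24 h, against 5.15, 5.27, 4.71 and 6.85 at 0 min, and it rose by 2.39 ± 0.4 (adjusted p = 7.37e-05; 2.84 without replicate 4). Its 4 probe sets changed by between 0.13 and 3.18. BCL2L11 rose by 0.96 ± 0.17 (adjusted p = 0.000137), and by 0.74 without replicate 4. Its 6 probe sets all rose, by between 0.23 and 0.96, but the call was lost with their mean. The survival gene BCL2 had 3.13, 3.01 and 3.44 at 24 h, against 5.33, 5.63, 5.26 and 5.55 at 0 min, and it fell by 2.25 ± 0.17 (adjusted p = 1.17e-09). Its other probe set changed by -0.4. Of 30 death receptors, caspases and their inhibitors 5 rose and 5 fell (5 and 6 without replicate 4). CASP10, an initiator caspase, had 9.64, 9.69 and 9.71 at 24 h, against 6.79, 7.11, 6.68 and 8.3 at 0 min, and it rose by 2.46 ± 0.34 (adjusted p = 6.83e-06). CASP1 rose by 1.61 ± 0.19 from below 4, and the TRAIL receptor TNFRSF10A fell by 1.77 ± 0.14. APAF1, the apoptosome scaffold, changed by 1.35 ± 0.49 (adjusted p = 0.04) and by 2.07 without replicate 4, an array that overlapped those of 24 h. Its call was lost when any other of the 7 arrays was left out. CASP8 had 9.09, 8.96 and 9.24 at 24 h, against 9.0, 8.53, 8.94 and 10.11 at 0 min, a difference of -0.05 ± 0.29 (adjusted p = 0.923) that turned to 0.27 without replicate 4 and to 0.02 without 24 h replicate 2.

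Of 29 genes of nucleotide and polyamine synthesis 12 (41.4%) fell and 0 rose (13 and 1 without replicate 4). The polyamine enzymes SRM (-2.113) and ODC1 (-1.25) fell, and the pyrimidine enzyme DHODH fell by 1.73 (-1.33 without replicate 4). SAT1, which acetylates polyamines for export, fell by 0.9 ± 0.15. Of 31 genes of glycolysis and the hypoxia response 6 rose and 8 fell (7 and 9 without replicate 4, 5 falls without 24 h replicate 1 and 4 falls without 24 h replicate 2). Their shares, 19.4% higher and 25.8% lower, compare with 18.9% and 13.9% over all genes. The hexokinase HK2 fell by 0.94 ± 0.14, and ENO2 fell by 1.0 ± 0.13. Of 26 genes of pyruvate dehydrogenase and fatty acid oxidation 7 (26.9%) rose and 1 (3.85%) fell with either set. PPARA, a nuclear receptor of lipid oxidation, had 8.85, 8.7 and 8.85 at 24 h, against 7.4, 7.42, 7.3 and 7.09 at 0 min, and it rose by 1.5 ± 0.15 (adjusted p = 9.92e-08). PDK4, which inhibits pyruvate dehydrogenase, had 5.54, 6.47 and 6.12 at 24 h, against 3.15, 3.29, 2.95 and 5.99 at 0 min, a rise of 2.2 ± 0.47 (2.92 without replicate 4), while PDK1 fell by 0.56 ± 0.11. ETFDH rose by 0.94 ± 0.14.

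In lipid synthesis 10 of 28 genes (35.7%) rose and 2 (7.14%) fell (11 and 2 without replicate 4). The regulators SREBF2 (1.95 ± 0.23) and SREBF1 (1.07 ± 0.31) and the sterol sensor INSIG1 (1.28 ± 0.19) rose, whereas the elongase ELOVL6 fell by 0.89 ± 0.09. Among 34 genes of lysosomes and autophagy 12 (35.3%) rose and 1 (2.94%) fell (9 and 2 without replicate 4, and 6 rises without 24 h replicate 2). ULK1, the kinase that starts autophagy, had 8.95, 9.1 and 9.17 at 24 h, against 7.32, 7.66, 7.09 and 6.89 at 0 min, and it rose by 1.83 ± 0.23 (adjusted p = 2.76e-06). WIPI1 rose by 1.5 ± 0.16. Of 29 genes linked to FOXO factors and growth arrest 14 (48.3%) rose and 4 (13.8%) fell with either set. The rises were led by YPEL2, TSC22D3 (4.03 ± 0.27) and YPEL3 (2.22 ± 0.19). Of 22 p53 targets 5 rose and 6 fell (6 and 6 without replicate 4), with TP53INP1 higher by 3.38 and the nuclease gene AEN changed by -2.78. The shares of p53 targets were 22.7% higher and 27.3% lower, against 18.9% and 13.9% over all genes.

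The machinery of RNA and protein production fell in its synthesis factors, with fewer calls in its structural proteins. Of 35 ribosome biogenesis genes 28 (80%) fell and 0 rose, against 13.9% and 18.9% over all genes (29 and 0 without replicate 4). Among those that fell were NOC3L (-1.59 ± 0.14), LYAR (-1.38 ± 0.14) and TSR1 (-1.2 ± 0.13). Of 33 genes of RNA polymerases I and III 12 (36.4%) fell and 2 (6.06%) rose (13 and 2 without replicate 4). POLR3G, the polymerase III subunit of proliferating and stem cells, had 7.81, 8.0 and 7.95 at 24 h, against 10.35, 10.21, 10.26 and 10.69 at 0 min, and it fell by 2.46 ± 0.13 (adjusted p = 4.26e-12). Another of the 3 probe sets of POLR3G changed by -0.75. The paralog POLR3GL had 7.87, 7.81 and 7.49 at 24 h, against 6.38, 6.27, 6.19 and 5.99 at 0 min, and it rose by 1.52 ± 0.14 (adjusted p = 3.1e-08). The polymerase III repressor MAF1 rose by 0.97 ± 0.22, and POLR1G fell by 1.26 ± 0.15. Both rises in that list were thus the alternative subunit and the repressor.

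Of 19 cytosolic ribosomal protein genes and 26 respiratory chain genes 0 were called with either set of controls, with median changes of -0.04 and 0.09. In the limma fit 0 of the ribosomal protein genes and 2 of the respiratory chain genes had an unadjusted p under 0.05, and with array weights 0 ribosomal protein genes and 9 respiratory chain genes passed, 8 of them higher. Of 38 mitochondrial ribosomal protein genes 8 fell and 1 rose (9 and 1 without replicate 4, and 4 or 5 falls without 24 h replicate 1, 2 or 3 or 0 min replicate 1), and MRPL32 fell by 0.61 ± 0.16. Of 27 proteasome genes 3 (11.1%) fell (2 without replicate 4), a smaller share than the 13.9% over all genes, with PSMD12 changed by -0.72. PSMC6 lost its call without replicate 4, with a change of -0.19, and PSMD11 lost it without any other of the 7 arrays. Of 34 genes of mRNA processing 8 fell with either set, and 4 or 5 without any 1 of the 24 h replicates or 0 min replicate 1 or 2, with SF3B4 changed by -0.59. Of 39 genes of nuclear transport 10 fell and 1 rose (8 and 1 without replicate 4). The importin IPO4 fell by 1.67 (-2.12 without replicate 4), and its call was lost without 24 h replicate 2 or 0 min replicate 2. Of 36 DNA repair genes 3 rose and 6 fell (4 and 9 without replicate 4), among them FANCG (-0.76) and ATM (0.83). Among 26 chaperones and degradation factors of the endoplasmic reticulum 4 rose and 3 fell, with HERPUD1 higher by 1.06 and SDF2L1 changed by -1.14. Among 19 cytosolic heat shock chaperones 2 rose and 3 fell (3 and 4 without replicate 4), with HSPB1 higher by 1.0 and BAG3 changed by -0.56. Shares over all genes were 18.9% higher and 13.9% lower. They were 15.4% and 11.5% for the endoplasmic reticulum list, 10.5% and 15.8% for heat shock and 8.33% and 16.7% for DNA repair. For mitochondrial ribosomal proteins they were 2.63% and 21.1%, for mRNA processing 0% and 23.5%, and for nuclear transport 2.56% and 25.6%.

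MDA-MB-453 had EGFR near the floor, with means of 3.57 at 24 h and 3.53 at 0 min, and received the same dose. In that line 730 genes (5.77%) were called. Of these 534 genes (4.22%) were higher and 196 (1.55%) lower at 24 h than at 0 min. The change differed between the lines for 1872 of 12643 genes (14.8%), tested as the difference of the differences. The 24 largest rises and falls in BT20 all had a difference, which their choice by the BT20 change made likely in advance, so it is a description. Of the 12 rises 3 were called higher in MDA-MB-453 too, LINC01133 (1.87 ± 0.17), SYTL5 (1.92 ± 0.16) and HCAR3 (1.0 ± 0.15), and of the 12 falls 0 were called there. The falling genes had little room in MDA-MB-453, since 11 of the 12 averaged below 4 at 0 min, as did 6 of the 12 rising genes. Of the 19 ATF4 and CHOP targets 9 rose in MDA-MB-453, and the change differed between the lines for 6. NUPR1 rose by 0.94 there and CHAC1 by 2.75.

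Zinc and oxidant genes included members that moved in opposite directions in the lines. Of the 10 metallothionein and zinc transport genes 8 differed in their change between the lines, with medians of -1.64 for BT20 and 0.63 for MDA-MB-453. MT1F changed by -2.14 ± 0.17 in BT20 and by 1.08 ± 0.18 in MDA-MB-453, a difference of -3.21 ± 0.25 (adjusted p = 9.97e-09). HMOX1 changed by 2.48 ± 0.21 in BT20 and by -1.7 ± 0.23 in MDA-MB-453, a difference of 4.18 ± 0.31 (adjusted p = 4.26e-09). Both genes were called in each line, in opposite directions. The same held for 6 more of the genes named here, PIR (difference 2.51), RARRES1 (2.95), IL18 (-3.42), PRSS23 (-2.32), SAT1 (-2.16) and FUCA1 (-1.52). Of 25 NRF2 targets 13 differed between the lines. CYP1A1 was alike in direction, changing by 2.77 ± 0.31 in BT20 and by 2.3 ± 0.33 in MDA-MB-453, and its difference of 0.47 ± 0.45 did not pass (adjusted p = 0.618).

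**Figure D4:**
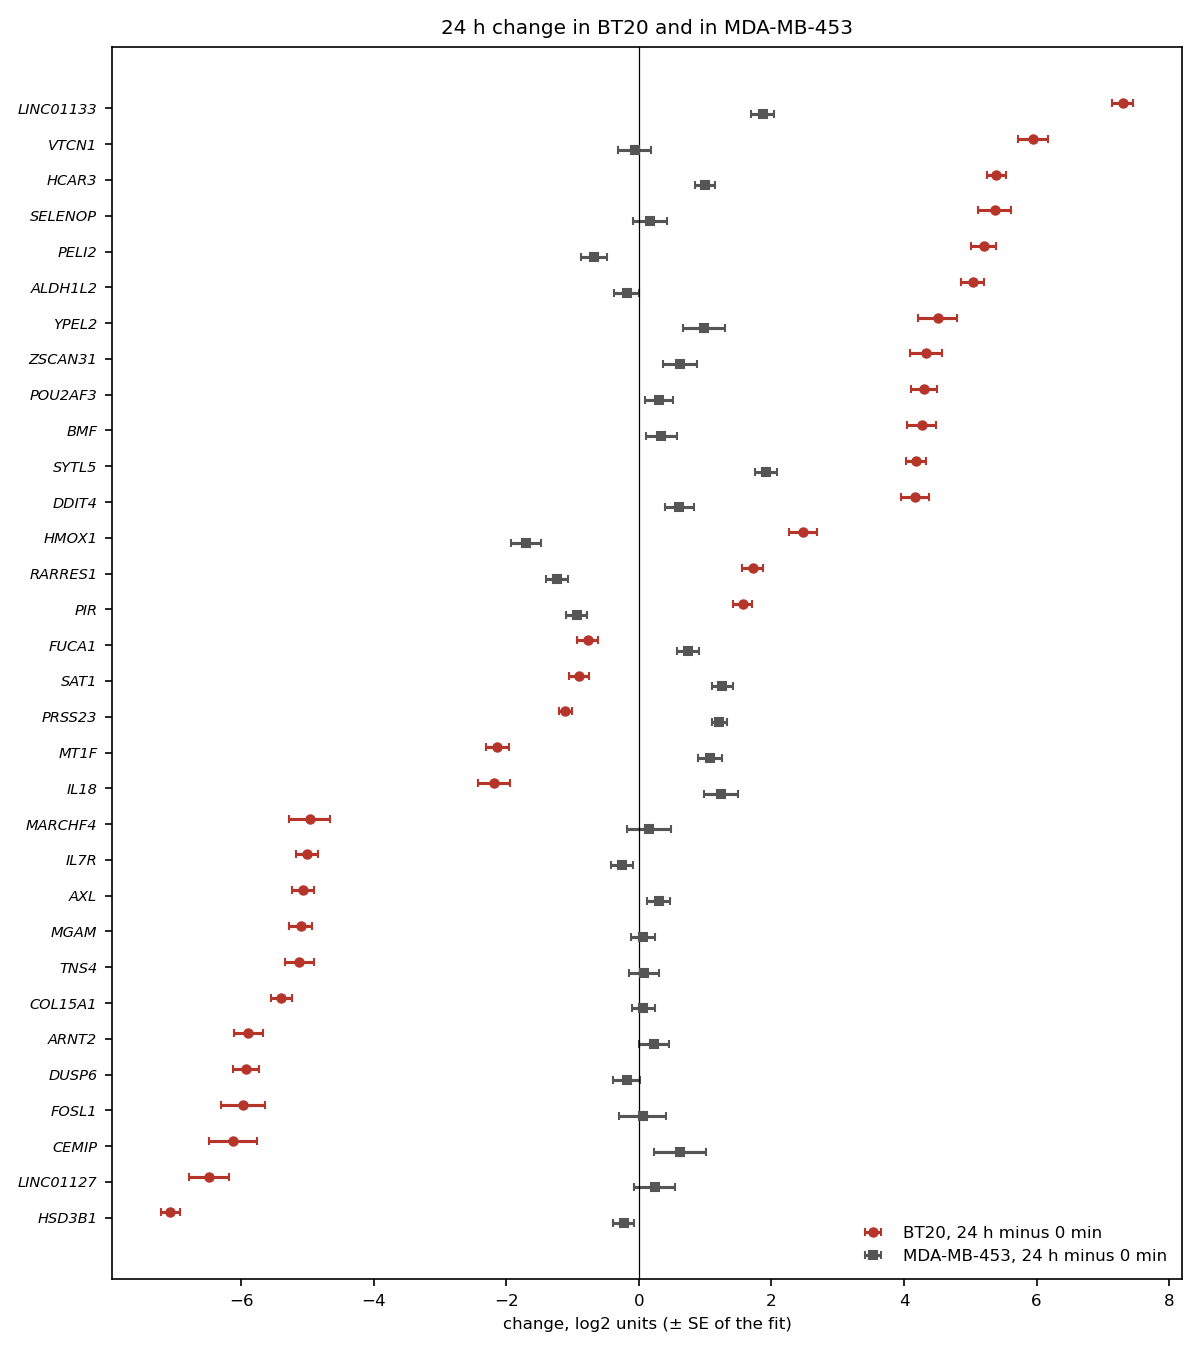
Change at 24 h against 0 min in log2 units (± SE of the fit) in BT20 (red circles) and MDA-MB-453 (grey squares) for the 24 genes with the largest changes in BT20 and the 8 named genes called in opposite directions in the lines. The largest changes of BT20 are far from those of MDA-MB-453, and HMOX1, RARRES1 and PIR lie to the right of 0 in BT20 and to the left in MDA-MB-453.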

How the data were processed

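Transcript levels were measured on Affymetrix arrays, 3 of BT20 at 24 h and 4 at 0 min. The deposited values are log2 values per probe set, made by the authors with GCRMA 2.20.0 in R 2.11.1, per the submitters' processing notes. GCRMA corrects each probe for background by its sequence, quantile-normalizes, and combines the probes of a set. Of 54613 probe sets 41091 carried 1 gene symbol, 1801 several and 11721 none in the platform annotation. Each gene is represented by its single-symbol probe set of highest mean over 25 arrays, which gave 19775 genes. Tests covered the 12643 genes that exceeded a log2 value of 4 on 3 arrays or more.

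A linear model with 8 group means was fitted to the 25 arrays with limma 3.58.1 in R 4.3.3 (17 residual degrees of freedom), with adjustment by Benjamini and Hochberg over 12643 genes. The contrasts were 24 h minus 0 min in BT20 and that change minus the one in MDA-MB-453, and the fit was repeated without 0 min replicate 4. On the 7 arrays the upper quartile of log2 values was 7.73 to 7.81. Between 44.9 and 45.5% of probe sets lay above 4, and no pair of arrays was identical. The number of arrays limits the precision. In simulated data the BT20 contrast, with 200 of 12643 genes changed, recovered 32.4% of genes changed by 0.5, 66.7% by 1 and 100% by 2 log2 units, and 7.04% of calls were false. Far fewer genes were changed there than the 32.8% called in the data, and no simulated array stood apart as replicate 4 did. Recovery and false calls in the data may therefore differ from these values.

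The comparison, the 57 gene lists and their members were chosen with earlier results of these data known. Named genes are the 12 largest rises and 12 largest falls called with both sets of controls, provided that the higher group averaged 6 or more and the arrays did not overlap, up to 3 called members per list with the smallest p, and 10 fixed genes. The rule named 179 genes, and 58 more, besides ERBB4 and the cell type markers, were named after their values were seen. Same-numbered replicates were not paired by the labels, and their deviations correlated at -0.01, 0.04 and -0.04. Alternatives were other filters, averaging all probe sets of a gene, other empirical Bayes settings, array weights, other normalizations, a replicate block, fits to fewer groups and leaving out each array. Promoter sequences are from RefSeq (GRCh38.p14).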

Additional observations from a re-analysis of the deposited data

Results flagged for a closer look

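For 40 of the 237 genes named here, 1 array of BT20 at 0 min lay far from the other 3, by the gap to its nearest neighbour over the range of the group. Chance gives such a gap in about 1 in 20 groups. In 34 of the 40 the array was replicate 4. Its log2 value was the highest of the group for APAF1 (10.07), CENPA (7.23), CLDN8 (6.45), CLSPN (10.48), DBP (5.23), DDIT4 (8.86), DHODH (10.69), EREG (11.95), IFT81 (5.83), KLF9 (8.18), NFKBIZ (11.65), NOTCH3 (10.61), PDK4 (5.99), PECAM1 (4.90), PSAT1 (11.21), RGS5 (4.28) and SMAD7 (7.15). It was the lowest for BMF (3.37), CYP1A1 (3.64), FOSL1 (9.81), H2AC6 (9.14), HBEGF (6.98), IPO4 (8.50), ITGB4 (7.85), NFKBIA (7.29), PADI1 (6.13), PLAUR (10.29), PRPF4 (11.64), PSMB8 (10.64), S100A7 (11.23), SERPING1 (3.66), SESN2 (4.68), SRM (9.95) and TNC (9.38). The other arrays were replicate 1 for RXRA (10.42), replicate 2 for CHAC1 (3.71) and replicate 3 for FARSB (11.53), HERPUD1 (10.83), MT1X (12.37) and TNFAIP2 (10.87). Replicate 4 correlated at 0.990 to 0.992 with the BT20 arrays at 6 h. All 34 genes were called in the same direction without it, and their changes then shifted by 0.02 to 0.72 log2 units. The shift exceeded 1.5 times for 2 of them, APAF1 (1.35, and 2.07 without replicate 4) and CLSPN (-1.83, and -1.15 without it).

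The 24 h change differed between the lines for 167 of the 237 genes named, by the test of the difference of the differences. Values are given for the 24 largest changes in BT20, where that choice made a difference likely, and for 8 genes called in opposite directions. The difference, BT20 minus MDA-MB-453 in log2 units, was positive for LINC01133 (5.43), VTCN1 (6.01), HCAR3 (4.39), SELENOP (5.20), PELI2 (5.88), ALDH1L2 (5.22), YPEL2 (3.53), ZSCAN31 (3.71), POU2AF3 (4.00), BMF (3.93), SYTL5 (2.26), DDIT4 (3.56), HMOX1 (4.18), PIR (2.51) and RARRES1 (2.95). It was negative for HSD3B1 (-6.84), LINC01127 (-6.72), CEMIP (-6.74), FOSL1 (-6.04), DUSP6 (-5.74), ARNT2 (-6.12), COL15A1 (-5.46), TNS4 (-5.20), MGAM (-5.17), AXL (-5.37), IL7R (-4.75), MARCHF4 (-5.12), FUCA1 (-1.52), IL18 (-3.42), MT1F (-3.21), PRSS23 (-2.32) and SAT1 (-2.16). In the 8, FUCA1, HMOX1, IL18, MT1F, PIR, PRSS23, RARRES1 and SAT1, the change was called in both lines with opposite signs. The lines also differ in their level of EGFR before treatment and in much else, and the part of any 1 difference was not tested.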

How the results depend on the processing

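The numbers of genes called at 24 h in BT20 (4149, of which 2387 higher and 1762 lower) and of genes whose change differed between the lines (1872) stayed within 1.5 times their value under every alternative run except array weights. With array weights they were 8067, 4382, 3685 and 6018. The estimation of those weights stopped before it converged. Leaving out each of the 7 arrays in turn gave 3338 to 4641 calls, 1903 to 2689 higher, 1339 to 1952 lower and 1557 to 2489 differences between the lines. The fit with a replicate block gave 4956 calls, 2824 higher and 2132 lower, and 2566 differences, but the replicates share only a number. Of the 233 called genes named, 214 kept their call and direction in every alternative that tested them. The 19 others lost the call in at least 1. ATM, BCL2L11, CCNB2, CHEK1, MRPL35, PRPF4, PSMD11 and U2AF2 lost it with the mean of their probe sets. APAF1, CDKN1A, CLSPN, IFT81, ITGB4, PDK4, PECAM1, PSMC6 and SERPING1 lost it in a fit to the 24 h and 0 min BT20 arrays alone. CASP8, not called, had a change of -0.05 that lay between -0.26 and 0.27 with 1 array left out, and was 0.26 with array weights and 0.27 with the replicate block. ACTB, not called, had 0.11, and -0.023 with array weights. Causes of these shifts were not tested. Of 2052 counts of list members under alternatives, 1816 stayed within 1.5 times the value given. A call at a level near 4 rests on signal close to background, as for 608 of the called genes.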
